A study of Homo sapiens with 12 samples.

Results

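Promoters of long noncoding RNA (lncRNA) genes made up 1733 of the 38598 regions, or 4.49%, that H3K27ac peaks marked in HCT116 cells. To find them, the 20000 highest-scoring peaks of each of 6 libraries were pooled and merged when they lay within 100 bp. A region counted as an lncRNA promoter when a GENCODE transcript of an lncRNA gene started at most 1 kb away and no protein-coding transcript did (hg38). HCT116 is an established colorectal cancer line with active MAPK signaling, grown here untreated, with 1 µM cobimetinib for 24 h or with 100 ng/ml TNFα for 24 h. H3K27ac was profiled in 2 replicates per condition by CUT&RUN, in which an antibody to the mark directs a nuclease to cut out the marked chromatin. The 3 groups are the same line, and the labels name no genetic change. Libraries made with control IgG were not analysed here. Nothing in the labels says that replicates came from separate cultures, so the tests measure the spread between these libraries, which may be technical.

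Acetylation of lysine 27 on histone H3 is laid down by p300 and CBP at active promoters and enhancers, and it is a common guide to where transcription starts. Many lncRNAs are transcribed by RNA polymerase II from promoters of their own, and many others start at what acts as an enhancer, so a mark near an lncRNA start can belong to either kind of element. Cobimetinib blocks MEK1, the kinase that activates ERK, and so lowers the activity of AP1 and ETS factors downstream. TNFα acts through its receptor on NF-κB and on the kinases that activate AP1. The AP1 consensus is searched here as the word TGACTCA, which reads TGAGTCA on the other strand.

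The promoter sequences that follow belong to regions called different between conditions, and they show where an AP1 word stands relative to the annotated start. Each window runs from 250 bases before the start of the lncRNA to 50 bases after it, read on the strand of the gene from hg38, with AP1 words in capitals. The first 4 were called higher with TNFα, LINC01002 and ENSG00000287932 against both other groups, ENSG00000285709 against untreated and ENSG00000278816 against cobimetinib. They are shown because each window holds 1 AP1 word.
LINC01002 (chr19:202109-202408, minus strand): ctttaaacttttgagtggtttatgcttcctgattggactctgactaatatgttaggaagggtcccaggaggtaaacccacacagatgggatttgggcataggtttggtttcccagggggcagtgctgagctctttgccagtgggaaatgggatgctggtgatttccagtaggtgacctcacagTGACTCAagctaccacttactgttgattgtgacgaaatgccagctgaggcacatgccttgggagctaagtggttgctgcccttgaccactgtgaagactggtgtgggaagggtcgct
ENSG00000287932 (chr7:92642267-92642566, minus strand): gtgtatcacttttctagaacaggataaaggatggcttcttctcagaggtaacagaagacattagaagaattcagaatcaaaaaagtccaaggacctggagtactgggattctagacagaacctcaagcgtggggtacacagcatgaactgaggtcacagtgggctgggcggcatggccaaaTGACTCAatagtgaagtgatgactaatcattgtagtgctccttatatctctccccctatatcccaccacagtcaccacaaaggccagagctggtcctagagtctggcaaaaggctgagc
ENSG00000285709 (chrX:39908059-39908358, plus strand): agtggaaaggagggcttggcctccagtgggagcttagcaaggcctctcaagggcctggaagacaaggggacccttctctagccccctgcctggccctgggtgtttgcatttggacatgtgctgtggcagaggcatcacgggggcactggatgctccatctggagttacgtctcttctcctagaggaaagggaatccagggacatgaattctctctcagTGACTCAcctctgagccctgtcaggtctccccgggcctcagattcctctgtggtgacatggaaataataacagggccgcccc
ENSG00000278816 (chr20:5061291-5061590, minus strand): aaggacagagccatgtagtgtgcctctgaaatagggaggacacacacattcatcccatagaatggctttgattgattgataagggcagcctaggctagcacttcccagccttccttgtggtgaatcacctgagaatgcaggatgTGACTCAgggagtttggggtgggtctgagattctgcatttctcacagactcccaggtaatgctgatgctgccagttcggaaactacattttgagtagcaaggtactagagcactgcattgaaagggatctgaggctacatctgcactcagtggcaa
The next 2 were called higher with cobimetinib than with TNFα, hold no AP1 word and are richer in CpG. Their observed to expected CpG ratio was 0.845 for ENSG00000271780 and 0.618 for LINC00910, against 0.111 for LINC01002, and the start windows of all 10 regions called in this direction ranged from 0.124 to 0.946.
ENSG00000271780 (chr14:101948059-101948358, plus strand): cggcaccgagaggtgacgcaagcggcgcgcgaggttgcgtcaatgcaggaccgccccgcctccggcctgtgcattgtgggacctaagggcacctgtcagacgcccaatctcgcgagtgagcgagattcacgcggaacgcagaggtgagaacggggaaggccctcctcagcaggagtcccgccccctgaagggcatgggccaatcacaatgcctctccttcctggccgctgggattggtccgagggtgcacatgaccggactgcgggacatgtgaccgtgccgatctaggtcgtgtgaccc
LINC00910 (chr17:43388775-43389074, minus strand): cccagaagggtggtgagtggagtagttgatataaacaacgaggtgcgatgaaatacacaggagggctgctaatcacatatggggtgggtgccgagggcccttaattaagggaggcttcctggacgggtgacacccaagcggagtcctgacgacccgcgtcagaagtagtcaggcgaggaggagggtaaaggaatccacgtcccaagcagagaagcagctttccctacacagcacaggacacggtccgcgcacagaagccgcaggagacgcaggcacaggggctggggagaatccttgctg
Of all lncRNA start windows of these 300 bases in GENCODE, 5.86% of 48163 hold an AP1 word, and of protein-coding start windows 3.78% of 78454 do. The windows printed here were picked, and others went the other way. The start windows of ENSG00000287928 and ENSG00000290457, called higher with cobimetinib than with TNFα and than untreated, respectively, each hold 1 AP1 word. The other start windows examined for members called higher with TNFα hold none, those of LINC01010, ENSG00000290999 and ENSG00000285685 among them. Not every region called higher with TNFα was examined in this way. The presence of the letters is a description and was not tested for binding.

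In other members the AP1 word lay in the acetylated region and not in the window at the start. The following 100 bases are centred on the AP1 word nearest the middle of the region and are read on the plus strand of hg38. They are shown for 2 regions that ranked higher with TNFα than with cobimetinib. In ENSG00000261392 the word lies just past the end of the start window.
ENSG00000261392 (chr16:9068560-9068659, plus strand): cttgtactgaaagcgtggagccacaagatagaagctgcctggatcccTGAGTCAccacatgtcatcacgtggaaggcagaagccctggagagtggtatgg
LINC02828 (chr6:24743374-24743473, plus strand): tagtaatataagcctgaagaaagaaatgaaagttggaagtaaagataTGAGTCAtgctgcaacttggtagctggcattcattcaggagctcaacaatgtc
The study's interest was in endogenous retroviral enhancers that carry tandem AP1 sites, so the members were also searched for 3 or more AP1 words whose starts lay 26 to 32 bp apart. Just 1 of the 1733 members held such an array, beside LINC02533 on chromosome 6, against 34 of all 38598 regions. No repeat annotation was used, and the letters alone do not say whether the array is retroviral.
LINC02533 (chr6:4487696-4487800, plus strand): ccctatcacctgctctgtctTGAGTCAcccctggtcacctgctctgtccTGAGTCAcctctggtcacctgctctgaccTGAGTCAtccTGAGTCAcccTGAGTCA
The LINC02533 region, chr6:4487337-4488307, ended 491 bp before the annotated start and was chosen for display after its values were seen. Ranks were 16726 and 34024.5 untreated, 32909 in cobimetinib replicate 1 with no peak in replicate 2, and 10897 and 11269 in the TNFα libraries. Both TNFα ranks were above all others, and the region was called in no comparison.

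Untreated replicate 2 stood apart from the other 5 libraries before any comparison was made. The median width of its 20000 peaks was 380 bp against 922 to 1265.5 bp elsewhere, and 7102 of its peaks shared the last score taken against 332 to 533. Peak totals ranged from 69813 to 124771, and the lists do not give read depth. Peaks were held at the protein-coding promoters of the epithelial genes KRT8 in 6 libraries, EPCAM in 5, CDX2 in 4 and KRT18 in 3, and at that of CDH1 in none. Of genes of other cell types, PTPRC and CD3E were held by 0 libraries, PECAM1 by 2 and COL1A1 by 6. COL1A1, a gene of fibroblasts, was thus held by all libraries and CDH1, of epithelia, by none. Held refers to the 20000 highest peaks, so a promoter not held may still have lower peaks. The part of these markers and of peak width in the results was not tested.

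A library is said to hold a region when at least 1 bp of the region overlaps one of its 20000 highest peaks. The rank of a region is the position of its best peak among all peaks of that library, where 1 is the highest score, with tied peaks given their mean rank. Ranks beyond 60000 and regions without a peak were set to 60000 in fits. Differences between groups are in log2 units of rank, where 1 unit is a doubling of the position in the list, and a positive value means a higher position in the first-named group.

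The members lay near the starts of 1780 of the 18866 annotated lncRNA genes, and 220 members lay near more than 1 such gene. An annotated start fell inside 1144 regions and within 1 kb outside the other 589. By the nearest start, 956 regions belonged to genes known only by an Ensembl identifier, 334 to LINC genes, 170 to genes named as antisense, 51 to host genes, 13 to divergent transcripts and 209 to genes with other symbols. The lncRNA start was intergenic for 1321 regions, in an intron of a protein-coding gene for 245 on the opposite strand and 74 on the same strand, and in an exon for 70 and 23, respectively. The nearest protein-coding start lay at a median of 33674 bp, between 1 and 5 kb away for 189 members and over 50 kb away for 683. Among all members, 93 lay within 1 kb of a noncoding transcript of a protein-coding gene, which the rule admits.

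In sequence, members lay between protein-coding promoter regions and distal regions. Within the central 1000 bp, 30.2% of members had a CpG observed to expected ratio above 0.6, against 76.4% of the 11219 protein-coding promoter regions and 3.78% of the 25646 distal regions. An AP1 word occurred there in 33.4% of members, 14.2% of protein-coding promoter regions, 40.7% of distal regions and 32.7% of all regions. The NF-κB consensus, searched on both strands, occurred in 19.4%, 23.1%, 11.1% and 15.0%, respectively. The median width was 1170 bp for members, 1517 bp for protein-coding promoter regions and 628 bp for distal regions.

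The number of libraries that held a member ranged over all 6. Untreated replicates 1 and 2 held 1122 and 787 members, cobimetinib replicates 1128 and 1097, and TNFα replicates 1075 and 1019. All 6 libraries held 490 members, or 28.3% (95% Wilson interval 26.2 to 30.4%), whereas 437 were held by 1 library, of which 129 by untreated replicate 2 alone. The same share held by all 6 was 36.6% of protein-coding promoter regions and 13.0% of distal regions. Without untreated replicate 2, the other 5 libraries together held 672 members, or 38.8%, against 52.3% and 17.7%. Members held by all 6 were wider than those held by 1, with medians of 1781 and 401 bp, and a CpG ratio above 0.6 was found in 38.2% and 15.6% of them.

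**Figure D1:**
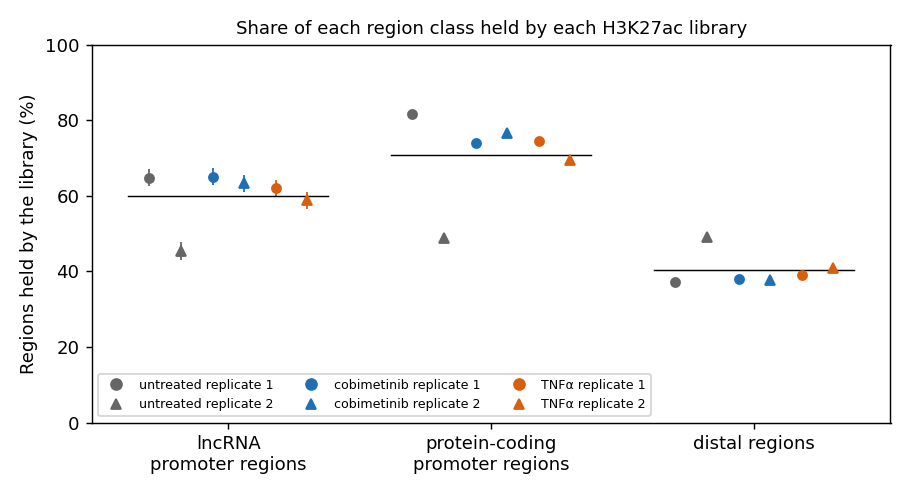
Percent of regions held (vertical axis) by each of the 6 libraries, for lncRNA promoter, protein-coding promoter and distal regions, with 95% Wilson intervals and the mean over libraries as a line. Untreated replicate 2 held 45.4% of lncRNA promoter regions and the other 5 libraries 58.8 to 65.1%.

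Per library, the share of members held averaged 59.9% against 70.8% for protein-coding promoter regions, a difference of -10.9 ± 4.54 percentage points (SD, n = 6 libraries). The share of members was below in 6 of 6 libraries, and the difference ranged from -17.0 to -3.52 points. Against distal regions the difference was 19.6 ± 12.0 points, above in 5 of 6 libraries. The exception was untreated replicate 2, which held 45.4% of members and 49.1% of distal regions. Since the regions were built from these same peaks, the shares are given as a description, with no test. Across conditions, the number held averaged 954.5 ± 237 in untreated, 1112.5 ± 21.9 in cobimetinib and 1047 ± 39.6 in TNFα libraries (SD, n = 2 each). An exact permutation test over the 15 ways to divide the libraries into 3 pairs gave p = 0.6667, where the smallest possible is 0.0667, so the spread between untreated replicates was larger than the differences between groups.

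Cobimetinib against untreated asked which lncRNA promoters changed rank when MEK was inhibited. Regions were called by limma at an adjusted p under 0.05. Of the members, 11 ranked higher with cobimetinib, or 0.635% against 0.337% of all regions, and 7 ranked lower, or 0.404% against 0.171%. All 7 that ranked lower started in intergenic positions, and 5 of them were known only by an Ensembl identifier. Those that ranked higher included LINC00173, LINC01138 and LINC00592. A region that only the 2 libraries of one group hold became a member through that group, so a difference there follows in part from the choice of regions. This held for ECEL1P2 among the 11 and ENSG00000283033 among the 7, and such regions are given below by their ranks, with no p. The median difference was 0.26 log2 units over members and 0.00 over all regions, and without untreated replicate 2 it was 0.00 in both.

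One of the largest falls was at ENSG00000261392, chr16:9067170-9069130, an intergenic lncRNA 22514 bp from the start of HAPSTR1. It ranked 335 and 713.5 untreated, 6632 and 10817.5 with cobimetinib and 293.5 and 150.5 with TNFα. Both cobimetinib ranks were below all 4 others, with a difference of -4.11 ± 1.02 log2 units (SE) and adjusted p = 0.019. Without untreated replicate 2 the difference was -4.66 with adjusted p = 0.412, so the call was lost. The other 6 regions called lower also lost their call in that fit, with adjusted p from 0.218 to 0.706 over the 7.

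A further 3 of the regions called lower lay on the short arm of chromosome 17. The nearest protein-coding genes were MPRIP, which encodes a partner of myosin phosphatase, and TNFRSF13B, which encodes a receptor of B cells. ENSG00000287114, chr17:17027341-17029317, ranked 371 and 261.5 untreated, 7117.5 and 5206 with cobimetinib and 1498.5 and 1493.5 with TNFα, with a difference of -4.29 and adjusted p = 0.00852. ENSG00000260328, chr17:17014388-17015597, ranked 2712 and 3457.5 untreated but 28678 and 42501 with cobimetinib, a difference of -3.51 with adjusted p = 0.0174. ENSG00000283033, chr17:16860776-16861633, had ranks of 6556.5 and 5496.5 untreated and no peak with cobimetinib, so its difference depends on the rank of 60000 given to absent peaks. In each of these the untreated and cobimetinib ranks did not overlap. The start windows of ENSG00000260328 and ENSG00000283033 were 95.3% identical over 300 bases, so their reads may be hard to tell apart.

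The other regions that ranked lower were LINC02884, ENSG00000290546 and PELATON. LINC02884 lies at chr1:112250897-112252614 and ranked 1620 and 3061.5 untreated against 19430 and 39532 with cobimetinib. PELATON, chr20:50266896-50268198, lies 76066 bp from CEBPB, a transcription factor of inflammatory and metabolic genes. Its ranks were 1824 and 1339.5 untreated, 13869 and 17073.5 with cobimetinib and 8005.5 and 1556 with TNFα. ENSG00000290546 lies in the part of chromosome 9 beside the centromere, which is rich in duplicated sequence. Its reads may thus be hard to tell from those of near-identical copies.

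Of the regions that ranked higher with cobimetinib, ECEL1P2, a pseudogene of ECEL1 beside the alkaline phosphatase gene ALPP, had the largest difference in rank. Its region, chr2:232385293-232386515, ended 529 bp from the start, ranked 1219 and 514 with cobimetinib and 21910 in untreated replicate 1, and had no peak in untreated replicate 2 or the TNFα libraries. Only the cobimetinib libraries held it, and absent peaks were set to rank 60000, on which the size of its difference depends. LINC00173, chr12:116533063-116534508, ranked 17850.5 in untreated replicate 1, had no peak in replicate 2, and ranked 1011 and 3694.5 with cobimetinib. LINC01138 at chr1:148457947-148459951 ranked 5972.5 and 39474.5 untreated against 824 and 1975, and LINC00592, near KRT80, 5337 and 100417 against 1780 and 1305.5.

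For 10 of these 11 regions, untreated replicate 2 was below rank 20000 or had no peak, whereas replicate 1 was below rank 20000 in ECEL1P2 alone. ENSG00000254197, on chromosome 8 in an intron of SLC45A4, was the exception, with 634.5 and 6729.5 untreated and 91 and 130 with cobimetinib. Without untreated replicate 2 no member was called higher with cobimetinib, although all 11 kept their direction, and LINC01138 went from 3.59 to 2.23 log2 units. The members called lower in that fit included HOXA-AS2, LINC02079 and ENSG00000289624, named after their values were seen. All members called lower there had no peak or a rank beyond 60000 in all treated libraries, so that no spread was left between their replicates. Their differences were small, from -1.71 for ENSG00000289624 to -0.64 for LINC02079. In the fit restricted to the compared groups 0 members and 0 of all regions were called. No member was called in any fit that left out a cobimetinib or TNFα library. Without untreated replicate 1 the count rose many-fold among members, and more so over all regions, so it depends strongly on that library. The calls are those of the 6-library fit.

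TNFα against untreated asked which lncRNA promoters gained or lost rank with cytokine exposure. It called 8 members higher, 0.462% against 0.275% of all regions, and 0 lower, against 0.00777% (3 regions) of all. With an unadjusted limma p under 0.05, 103 members were higher, where 4.90% of all regions were, and 29 lower, where 1.90% were. The genes called were LINC01002, LINC01010 and 6 known only by an Ensembl identifier. For 4 of the 8, only the TNFα libraries held the region, so that it became a member through them. These were LINC01002, ENSG00000287932, ENSG00000290999 and ENSG00000291068, which are given by their ranks. The same untreated libraries served the cobimetinib comparison, so the 2 comparisons are not independent.

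Absent from both untreated and cobimetinib libraries, LINC01002 at chr19:201789-202269 ranked 897 and 1622 with TNFα, and the 4 absent peaks were set to 60000. The 100 bases around its AP1 word are identical to those in the ENSG00000291068 region at chr1:223952261-223953795, so reads of these 2 regions may be hard to tell apart. ENSG00000291068 ranked 10249.5 and 2314.5 with TNFα, 54939 and 91529 untreated, and had no peak with cobimetinib. ENSG00000287932, chr7:92641569-92642674, starts in an intron of CDK6, the cyclin-dependent kinase of the G1 phase, and ranked 1123 and 1092 with TNFα, against 47575 in untreated replicate 1 and no peak in the other 3 libraries. The start windows of LINC01002 and ENSG00000287932, printed above, hold an AP1 word.

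The 4 regions that other libraries also held included 2 near genes of kinase signaling. ENSG00000285685, chr3:52045638-52047805, lies 8360 bp from DUSP7, a phosphatase that inactivates ERK, and ranked 4720.5 and 26242 untreated, 12932.5 and 29261.5 with cobimetinib and 805.5 and 1395 with TNFα. LINC01010, chr6:134435577-134437242, is 117465 bp from SGK1, a serum- and stress-regulated kinase, and ranked 11686 and 53122 untreated, 10448 and 21422 with cobimetinib and 2262 and 1825.5 with TNFα. ENSG00000285709 on the X chromosome ranked 9969 and 62095 untreated and 2499 and 1971.5 with TNFα. For each, TNFα ranks were above all 4 other ranks, with adjusted p of 0.0368, 0.019 and 0.0278.

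Without untreated replicate 2, which leaves 1 untreated library, all 8 members called higher kept their direction, but most lost their call. Members called lower in that fit had all treated ranks at the limit, HOXA-AS2 among them. In that fit ENSG00000285709 went from 3.46 to 2.17 log2 units and ENSG00000285685 from 3.39 to 2.15. LINC01002 kept 5.64 and ENSG00000287932 had 5.42. Fits without a TNFα or cobimetinib library called no member. Without untreated replicate 1 the count rose many-fold among members, and more so over all regions.

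TNFα against cobimetinib compared stimulation with inhibition and gave the most calls, with no untreated library in the contrast. It called 32 members higher with TNFα, or 1.85% against 1.28% of all regions, and 10 lower, or 0.577% against 0.461%. The size of the higher calls ran from 2.88 to 5.89 log2 units, with a median of 3.54. Of the 32, 25 were intergenic, 21 were known only by an Ensembl identifier, 8 were held by all 6 libraries and 4 lay on chromosome 8. Only the TNFα libraries held 7 of the 32, and only the cobimetinib libraries 3 of the 10, so these became members through the group in which they were high.

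**Figure D2:**
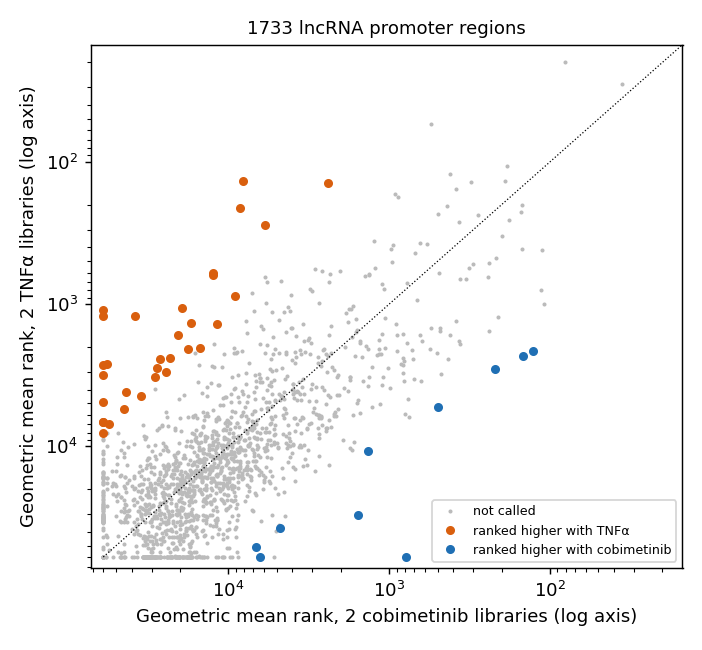
Geometric mean rank of each of the 1733 members in the 2 cobimetinib (horizontal) and 2 TNFα (vertical) libraries, both on log axes with higher ranks toward the top and right and absent peaks at 60000. The 32 regions called higher with TNFα and 10 called lower stand away from the diagonal.

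The largest difference among those higher with TNFα was at ENSG00000253530, a lncRNA on chromosome 8 at 126505776 to 126507548, in the gene-poor interval upstream of MYC. It ranked 335 and 1212.5 untreated, 11715 and 5690 with cobimetinib and 281 and 67 with TNFα, a difference of 5.89 ± 1.03 (SE, adjusted p = 1.23e-05). ENSG00000261392 came to 5.33 units and ENSG00000228509, an intergenic lncRNA, to 4.96. ENSG00000228509 ranked 7814 and 2411 untreated, 23988.5 and 66550 with cobimetinib and 2149 and 695 with TNFα.

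Several regions had untreated ranks near those with TNFα. ENSG00000289850, chr6:144921700-144924371, ranked 329 and 713.5 untreated, 5461 and 6454 with cobimetinib and 208 and 367 with TNFα. CCDC26, downstream of MYC on the same chromosome arm, ranked 1504.5 and 953 untreated, 14418.5 and 10649.5 with cobimetinib and 1035.5 and 381.5 with TNFα.

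The chemokine cluster held another region called higher with TNFα than with cobimetinib, chosen for mention after its values were seen. PPBPP2, a pseudogene 17374 bp from CXCL3, which encodes a neutrophil chemokine, ranked 768.5 and 1040.5 untreated, 1241.5 and 4590 with cobimetinib and 149.5 and 134.5 with TNFα, a difference from cobimetinib of 4.07 (adjusted p = 0.0126). LINC02828, chr6:24742511-24744257, ranked 1296.5 and 16075.5 untreated, 9656.5 and 16227 with cobimetinib and 463 and 782.5 with TNFα.

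Among the 10 that ranked lower with TNFα, ECEL1P2 differed most in rank, with no peak in either TNFα library and ranks of 1219 and 514 with cobimetinib, the only libraries that held it. ENSG00000271780 and LINC00910 were held by all 6 libraries and were highest with cobimetinib. ENSG00000271780, chr14:101947577-101949378, 15195 bp from the dynein heavy chain gene DYNC1H1, ranked 2254 and 1108 untreated, 88.5 and 185 with cobimetinib and 2411 and 1865.5 with TNFα, a difference of -4.05 (adjusted p = 0.0121). LINC00910, chr17:43387940-43389816, ranked 2025.5 and 3794 untreated, 129 and 379 with cobimetinib and 1791.5 and 4512 with TNFα. In both, the 2 cobimetinib ranks were above all 4 others. ENSG00000287928 in an intron of the glutamate receptor gene GRIN2B, by contrast, ranked 28373 and 32591 with TNFα against 8111.5 and 7788.5 untreated and 1207 and 1998 with cobimetinib.

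**Figure D3:**
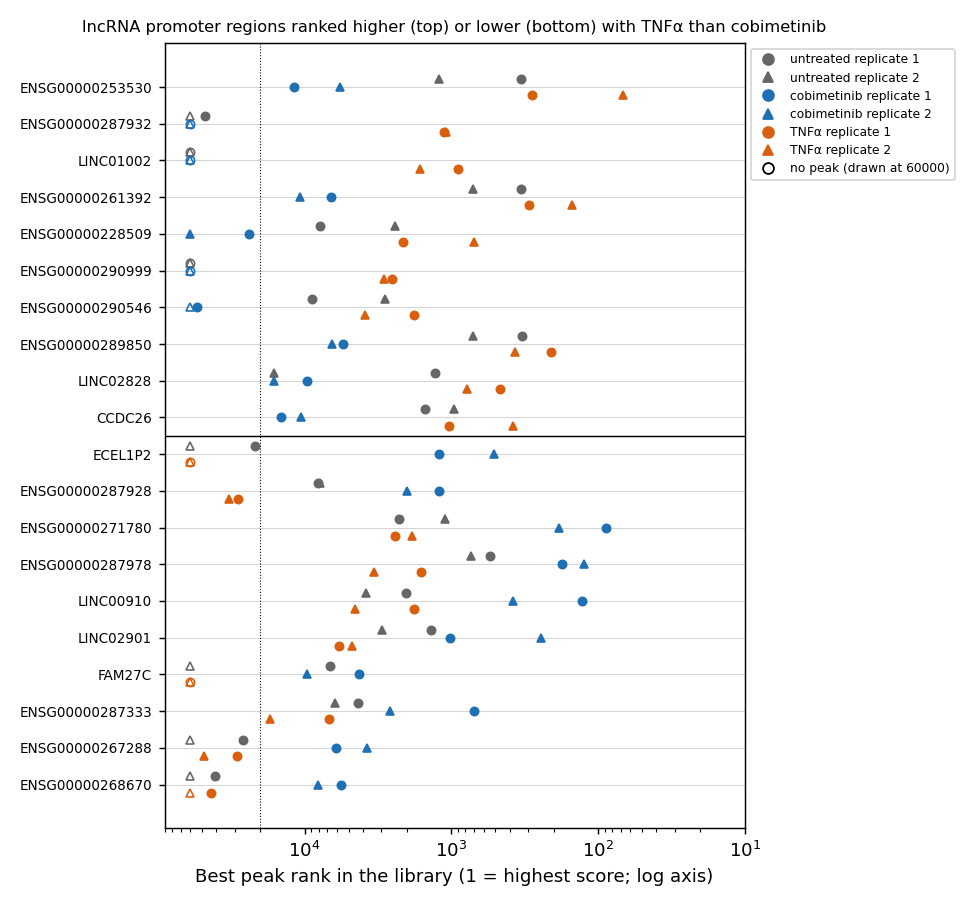
Best peak rank (horizontal log axis, higher ranks to the right) in each library for the 10 members with the largest difference in each direction between TNFα and cobimetinib, with circles for replicate 1, triangles for replicate 2 and the dotted line at rank 20000. In the upper 10 both TNFα ranks lie to the right of both cobimetinib ranks, and in the lower 10 to the left.

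The share of regions with an AP1 word is given by direction as a description. In the central 1000 bp, 20 of the 32 members higher with TNFα held one, or 62.5%, against 1 of the 10 lower and 33.4% of all members. Of all regions, 66.2% of the 494 called higher held one and 48 of the 178 called lower. The NF-κB consensus was found in 3 of the 32, or 9.38%, against 19.4% of all members, and in 99 of the 494 regions called higher. Widths of the 32 had a median of 1571.5 bp, against 1170 bp for all members, but the window searched was of 1 length.

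Leaving out untreated replicate 2 does not alter these differences, since neither group holds it, but it changes the estimate of the spread, and 0 members were then called. Leaving out any TNFα or cobimetinib library also left no member called, and a fit of the 4 libraries alone called 0 members and 2 of all regions. Without untreated replicate 1 the total stayed near that of the main fit, among members and over all regions. In that fit fewer members were called higher with TNFα and more were called lower.

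Presence in the 20000 highest peaks compares the groups without a fit. Lost members were held by both untreated and neither treated library, and gained members the reverse. Under cobimetinib 24 members were lost, or 1.38% (95% Wilson interval 0.932 to 2.05%), against 1.60% of all regions, and 85 were gained, or 4.90% (3.98 to 6.03%), against 3.92%. Under TNFα 20 were lost, or 1.15%, against 1.00%, and 56 were gained, or 3.23%, against 3.56%. These shares lay near those of all regions, and the intervals cover counting error only.

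Between treated groups, 87 members were held by both TNFα and neither cobimetinib library, or 5.02%, against 5.41% of all regions. The reverse held for 100 members, or 5.77% (4.77 to 6.97%), against 4.39%. Without untreated replicate 2, losses became 140 members under cobimetinib (8.08%, against 8.33% of all regions) and 148 under TNFα (8.54%, against 7.26%), whereas gains became 99 (5.71%, against 4.72%) and 72 (4.15%, against 4.40%). Without untreated replicate 1 in its place, losses were 9.75% (against 22.1% of all regions) and 9.58% (against 21.5%), so they rose when either untreated library was left out and 1 library fewer had to hold the region.

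**Figure D4:**
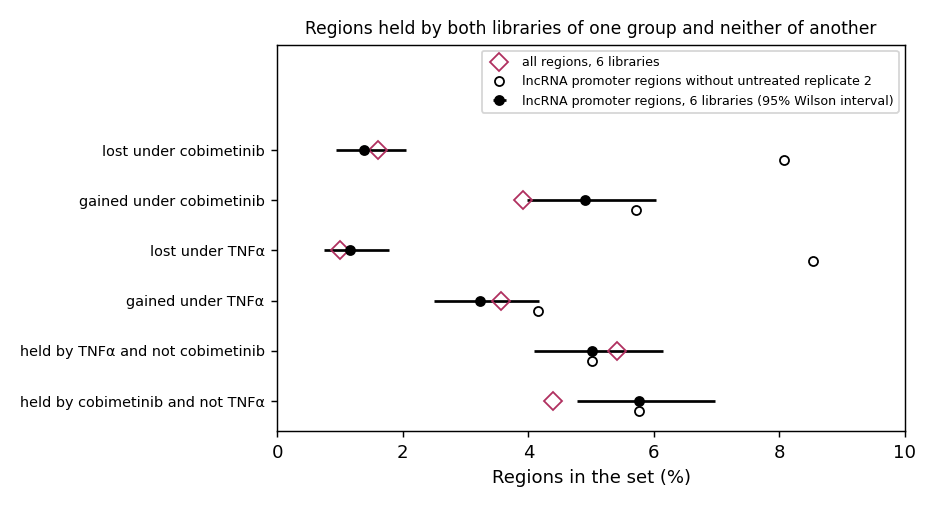
Percent of regions (horizontal axis) in each presence set, with filled circles for lncRNA promoter regions and 95% Wilson intervals, diamonds for all regions and open circles for lncRNA promoter regions without untreated replicate 2. The 2 loss sets move from 1.38% and 1.15% to 8.08% and 8.54%, and the sets without untreated libraries stay at 5.02% and 5.77%.

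The best-ranked members lost under cobimetinib were ENSG00000228509, ENSG00000278816, ENSG00000290546, ENSG00000260328 and ENSG00000289145. They were ranked over all 6 libraries, which favours regions that TNFα libraries also held, as these 5 were. ENSG00000278816, chr20:5060651-5062409, ranked 10439.5 and 2069.5 untreated, 23988.5 and 29261.5 with cobimetinib and 1885.5 and 3099 with TNFα. Members gained under cobimetinib included ENSG00000267288, near HEXIM2, at 6062.5 and 3742, and LINC03040 at 7117.5 and 10817.5. Members lost under TNFα included ENSG00000254363 and ENSG00000289003. ENSG00000289003, 43982 bp from MAP4K3, had ranks of 7526.5 and 1936.5 untreated and 20464.5 and 27343 with TNFα, the first of which lay just outside the 20000 peaks.

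For the lists of genes that follow, ranks of single regions are described whether or not they were called. Over all regions, both ranks of one group lay above both of another in 8.71 to 21.2% of regions, by comparison and direction. Among members the range was 10.5 to 27.9%. Such an order at a region that was not called is thus common.

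Host genes of small nucleolar RNAs (snoRNAs) are steadily transcribed, and their introns carry the RNAs that guide modification of ribosomal RNA. Of 29 listed hosts, 18 had member regions, 19 regions in all, 9 of them held by all 6 libraries. Another 7 hosts had only regions that lie at a protein-coding promoter, among them GAS5, and 4 had none. SNHG15 was the highest, at 576 and 976 untreated, 623.5 and 379 with cobimetinib and 1161.5 and 1890 with TNFα. No snoRNA host region was called in any comparison, and the median difference was 0.27 for cobimetinib and 0.05 for TNFα against untreated, where the median over all regions was 0.00.

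**Figure D5:**
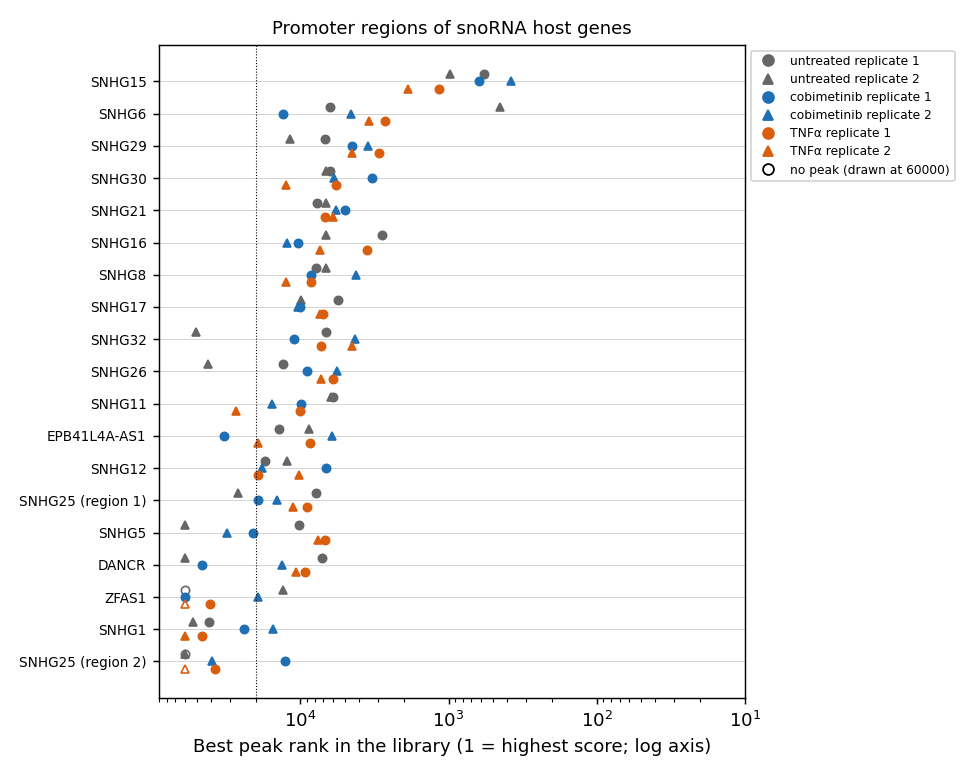
Best peak rank (horizontal log axis, higher ranks to the right) of the 19 promoter regions of snoRNA host genes in each library, with the dotted line at rank 20000 and open symbols for absent peaks. SNHG15 is the highest and the second region of SNHG25 among the lowest, and colours overlap for most genes.

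SNHG6 and SNHG5 varied more. SNHG6 ranked 6334 and 446 untreated, 13131.5 and 4590 with cobimetinib and 2705 and 3428 with TNFα, and the untreated ranks lay on either side of both TNFα ranks. SNHG5 ranked 10213.5 and 86440.5 untreated, 21039 and 31450.5 with cobimetinib and 6852.5 and 7567 with TNFα, a difference of 1.84 between TNFα and cobimetinib that was not called. ZFAS1 was held by 2 libraries and SNHG1 by 1, cobimetinib replicate 2 at rank 15332.

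Primary transcripts of microRNAs came next. Of 87 listed genes, 31 had 47 member regions, 15 of them held by all 6 libraries. The 1 called region was that of LINC01138, which carries no host-gene symbol, and no host gene by name was called. MIRLET7IHG, host of let-7i, was the highest of this list, with ranks of 433 and 459.5 untreated, 279 and 211.5 with cobimetinib and 511 and 806 with TNFα. MIR17HG, host of the miR-17 to miR-92a cluster, ranked 7912 and 2951 untreated, 21039 and 11496.5 with cobimetinib and 8400.5 and 10686.5 with TNFα. MIR200CHG, host of the epithelial miR-200c and miR-141, stayed between ranks 1879.5 and 4949.5 in all 6 libraries.

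MIRLET7BHG, the let-7b host, held 2 member regions that ranked in opposite order. The region at chr22:46084200-46086326 ranked 2386.5 and 3061.5 untreated, 17944 and 8460 with cobimetinib and 2737.5 and 2821 with TNFα. That at chr22:46052638-46055317 ranked 10656 and 16075.5, 4213.5 and 3742, and 11295 and 17215. In each the cobimetinib pair stood apart from the other 4 ranks, and neither was called. MIR31HG ranked 16922.5 and 11168 untreated, 8907.5 and 21422 with cobimetinib and 9756.5 and 15391 with TNFα, and MIR210HG, a gene of the hypoxia response, was held by both TNFα libraries and untreated replicate 1.

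A mixed list of 20 lncRNAs ran from abundant nuclear ones such as NEAT1 to tumour-expressed ones such as UCA1, and 1 was absent from the annotation. Of the 20, 13 had 34 member regions, 17 of them held by all 6 libraries, and none was called. NORAD, which binds PUMILIO proteins, ranked 263.5 and 2069.5 untreated, 2143 and 1911 with cobimetinib and 403 and 848 with TNFα. NEAT1, the scaffold of paraspeckles, had a region nearest to another lncRNA start that ranked 910.5 to 5001.5 over all libraries. MALAT1 had 2 member regions, held by 1 and 2 libraries. UCA1, an lncRNA expressed in bladder and colon tumours, ranked 269.5 and 2069.5 untreated, 1662 and 1076 with cobimetinib and 897 and 438 with TNFα.

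LINC00511 had the most member regions of any gene, 9, spread over its many annotated starts on chromosome 17. The region at chr17:72338042-72340237 ranked 304.5 and 360 untreated, 1552 and 994 with cobimetinib and 478.5 and 270.5 with TNFα. The region at chr17:72420595-72423567, with 4 AP1 words, ranked 1924.5 and 501, 2202 and 7479.5, and 1649.5 and 457. In both the cobimetinib ranks were below all others, with differences from untreated of -1.91 and -2.05 that were not called. At chr17:72602463-72604047 the order was the other way, 9871 and 11736 untreated, 7467.5 and 2759 with cobimetinib and 15973 and 27343 with TNFα.

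The gene-poor interval around MYC is known for enhancers that act in colorectal cells and for lncRNAs transcribed from them. Of 12 listed genes 4 had member regions, PVT1, CASC19, PCAT1 and PRNCR1, with 14 regions in all, 6 of them held by all 6 libraries. Another 4 listed symbols were not lncRNA genes of the annotation. Median differences were 1.01 for TNFα against untreated and 0.65 for TNFα against cobimetinib, beside 0.00 for all regions in each, and 1 region was called. That region, 826 bp from a PCAT1 start, ranked 7007.5 and 6572 with TNFα and 42897.5 in untreated replicate 1, with no peak in the other 3 libraries. Only the TNFα libraries held it, so it became a member through them, and its call rests on absent peaks set to rank 60000.

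CASC19 had 2 adjacent regions in which both TNFα ranks were above both untreated ranks. One ranked 8689.5 and 10539.5 untreated, 10803 and 7893.5 with cobimetinib and 2590 and 1588 with TNFα, and the other 4078.5 and 26242, 15529 and 16780, and 1537.5 and 3201.5. Neither was called, with adjusted p from limma of 0.466 against untreated for each. The best-ranked CASC19 region had another order, with 3681.5 and 1429 untreated, 761.5 and 590 with cobimetinib and 1375 and 643.5 with TNFα.

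PCAT1 also held the best-ranked region of the interval, 856 bp from an annotated start. It ranked 103 and 1108 untreated, 1780 and 437.5 with cobimetinib and 191.5 and 164.5 with TNFα, and the untreated ranks overlapped those with cobimetinib. PVT1, which lies beside MYC and hosts several microRNAs, had 5 member regions and none was called. The one nearest MYC ranked 5017.5 and 4125.5 untreated, 4408 and 4757.5 with cobimetinib and 5682.5 and 6377 with TNFα. The one with 4 AP1 words ranked 1781 and 1142, 726.5 and 821, and 3364 and 1041, so that both cobimetinib ranks were above the others.

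Few genes linked to either pathway had a member region. Of 11 MAPK-linked lncRNAs, MIR31HG, MIR17HG and LINC00460 did, and 2 were absent from the annotation. LINC00460 was held by untreated replicate 1 and TNFα replicate 1. Of 11 linked to TNF and NF-κB, CHROMR and LINC00346 did, and 3 others, PACERR, WAKMAR2 and MIR22HG, started at protein-coding promoters and so fell outside the rule. CHROMR ranked 3104 and 4125.5 untreated, 2260.5 and 5611 with cobimetinib and 8593.5 and 7461 with TNFα, and both TNFα ranks were below all others. LINC00346 ranked 7526.5 and 7276, 2202 and 3353, and 10897 and 6134, and both cobimetinib ranks were above all others. Neither list had a called region.

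The highest-ranked members over all libraries are given as a description of the strongest signal. ROCK1P1, a pseudogene of ROCK1 on chromosome 18, ranked 28 and 79 untreated, 281.5 and 23 with cobimetinib and 23 and 17 with TNFα. FAM230C, MRPL45P2, FAM86B3P and FAM86C2P also stood among the first 10. These belong to duplicated families, so their reads may be hard to tell from those of near-identical copies. ENSG00000257607, in an exon of C7orf50 and GPR146, ranked 21 and 88 untreated, 230 and 157 with cobimetinib and 97 and 191 with TNFα. ENSG00000230698 lies in an intron of MST1R, the RON receptor kinase, and ranked between 79 and 334 in all 6. None of the 10 was called in any comparison.

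At the other end, the lowest of the 490 members held by all 6 libraries lay close to the limit of the rule. ENSG00000222044, in an intron of POLR2F on the opposite strand, ranked 11015.5 and 16075.5 untreated, 15804.5 and 19222.5 with cobimetinib and 16953 and 19779 with TNFα. TMEM44-AS1 ranked 17120.5 and 8823, 12106 and 18249, and 15047.5 and 17835. LINC00595 ranked 13610.5 and 21374.5, 13564.5 and 9115.5, and 16693.5 and 13319. Rank 21374.5 is the mean of the tied peaks of untreated replicate 2, some of which were taken in file order. Differences between groups at these ranks were at most 0.62 log2 units in size.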

How the data were processed

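The deposited values are peak lists of 6 H3K27ac CUT&RUN libraries, 2 each of untreated, cobimetinib and TNFα, with a score per peak. Per the study's methods and the labels, the authors aligned reads to hg38 with BWA (0.7.15) and kept those that mapped uniquely, by a filter on mapping quality. Peaks were called with MACS2 (2.1.1) in each library at a relaxed p-value without IgG, keeping the higher score where paired-end and single-end calls overlapped. The lowest deposited score, 20, corresponds to a p-value of 0.01 on MACS2's scale. Scores grow with depth, which is unknown, so ranks within a library were compared. Read counts were not used here, so the count model of the study was not repeated. Regions were compared by limma (3.58.1, R 4.3.3) on -log2 rank with all 6 libraries (lmFit and eBayes with trend and robust moderation), Benjamini-Hochberg over all 38598 regions. For 96.5% of regions the moderation put an infinite weight on the spread common to regions of like rank, beside 3 residual degrees of freedom, so calls follow the size of the difference. Annotation was GENCODE 44, sequence hg38. The condition test was an exact permutation (scipy 1.17.1). A planned test of shares held between region classes is not given, since the regions were built from the same peaks. The fit was also run on simulated data with the same spread in every library and no rank limit. That run therefore does not test the part of untreated replicate 2 or of absent peaks. The members, gene lists and named regions were chosen with earlier results of these data known. Named were the 10 largest called in each direction, the 5 best of each presence set, the 10 best and 5 lowest ranked, and the listed genes. Listed symbols absent as lncRNA genes from the annotation could have no region but stay in the listed totals. These were 4 in the MYC list, 2 in the MAPK list and 1 in the list with NEAT1. The position of ENSG00000228509 is not reported here.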

Additional observations from a re-analysis of the deposited data

How the results depend on the processing

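Counts of called members moved with most alternatives for cobimetinib against untreated, TNFα against untreated and TNFα against cobimetinib, in that order. They started from 18, 8 and 42, with counts over all regions of 196, 109 and 672, and such counts follow in parentheses. With the 40000 highest peaks they were 3, 3 and 19 (57, 37 and 286). With only the groups compared they were 0, 0 and 0 (0, 0 and 2), and with regions held by 2 or more libraries 0, 3 and 19 (1, 22 and 324). Moderation that was not robust, chosen after seeing the data, gave 1, 3 and 17 (8, 27 and 305). The 10000 highest peaks gave 5 for TNFα against untreated (67), and quantile-normalized log2 scores 29 for cobimetinib against untreated (377). The replicate block gave 26, 10 and 45 (300, 164 and 703), but same-numbered replicates did not pair (correlations of their deviations 0.026, 0.102 and 0.058). Leaving out 1 replicate at a time moved the counts, not always in the same direction among members as over all regions. Most of these fits called no member. The cause was not tested.

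For presence sets, the share of all regions follows each share of members in parentheses. Members lost under cobimetinib were 3.60% with 10000 peaks (3.39%) and 0.577% with at least 50% of each region covered by peaks (0.643%). Members lost under TNFα were 2.34% (2.17%), 0.346% (0.402%) and, with 40000 peaks, 0.719% (0.653%). With 40000 peaks gains were 3.34% under cobimetinib (2.31%) and 2.03% under TNFα (1.64%), the latter 4.48% with 10000 (4.61%). Sets between treated groups were 2.94% for TNFα with 40000 peaks (2.53%), 7.59% with 10000 (7.52%), and 4.56% for cobimetinib with 40000 (2.99%). Leave-one-out ranges were 1.38 to 9.75% lost and 4.90 to 20.8% gained under cobimetinib, 1.15 to 9.58% and 3.23 to 18.1% under TNFα, 5.02 to 9.35% for TNFα and not cobimetinib, and 5.77 to 12.5% for the reverse. Over all regions, in the same order, they were 1.6 to 22.1%, 3.92 to 16.0%, 1.0 to 21.5%, 3.56 to 15.9%, 5.41 to 11.3% and 4.39 to 10.5%. With 1 library in a group, fewer libraries have to match.

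The share held differed from that of protein-coding promoter regions by -20.7 points with 40000 peaks, -2.64 with 10000 and -6.59 with 50% coverage, and from that of distal regions by 21.3, 11.1 and 15.5 points. Without 1 replicate the ranges were -12.4 to -9.74 and 18.0 to 24.3 points. The direction of both held under each alternative run. Depth is unknown, and each group has 2 libraries.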
